A study of Mus musculus with 8 samples.

Results

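The forkhead (Fox) and Sox genes were examined as 2 families of transcription factor genes in mouse beta cells with and without added Klf4. All mouse protein-coding genes on chromosomes 1 to 19, X and Y whose symbol is Fox with a letter and number, or Sox with a number, were taken, and 3 genes of these families were left out by the rule. This gave 60 genes, 43 Fox and 17 Sox, of 21887. The window of a gene was its body plus 10 kb to either side. The measure was the length of the window under peaks, which are regions of accessible chromatin called by the authors.

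The assay was ATAC-seq, in which a transposase cuts and tags DNA that is free of nucleosomes. The cells were MIN6, a wild-type beta cell line from a mouse insulinoma. They carried for 48 hours either the plasmid pGloMyc-Klf4, which expresses the zinc finger factor Klf4, or the pcDNA 3 Empty Vector, with 4 libraries for each plasmid, and both groups had been treated with Lipofectamine 3000. The values analysed here are 2 peak lists, 1 per plasmid and each merged over its libraries, so there was 1 value per plasmid for each gene, no spread between replicates and no test of any difference. The read depth behind the lists is unknown. MIN6 is 1 tumour line and the transfection was transient. The share of cells that took up a plasmid is not given in the sources used here, and a change in few cells cannot be told apart from a weak change in all of them.

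Forkhead proteins bind DNA through a winged helix domain, and some of them can engage sites in closed chromatin. The FoxA and FoxO proteins act in the endocrine pancreas, the first in its development and the second downstream of insulin signalling, where kinases of the Akt family drive them out of the nucleus. Sox proteins bend DNA through an HMG box. Several of them direct progenitors of the neural tube, neural crest, cartilage, endothelium and endoderm, and many Fox and Sox genes are silent outside the lineages they serve.

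The promoters below stand for the 3 states in which starts of Fox and Sox genes were found, namely under a peak of the Klf4 list only, of both lists or of neither. Each sequence runs 5′ to 3′ on the gene's own strand, from 250 bases before the transcription start to 50 bases after it, and comes from the RefSeq table of GRCm38.p6. Capitals mark the words CCCCGCCC, CCACCC and CACACCC, letters that KLF factors are known to bind, or their complements on the other strand, GGGCGGGG, GGGTGG and GGGTGTG; adjoining matches run together. They were chosen after these words had been counted. Of the 10 starts under a Klf4 peak only, 7 are shown. Sox1, Sox14, Foxf2, Foxl2 and Foxi3 are the 5 that hold CCCCGCCC, and Foxd1 and Sox30 stand for the other 5, which hold CCACCC without it. Of the starts under a peak in both lists, Foxa3 holds CCCCGCCC and CACACCC, and Sox4 holds none of the words. Foxd3, under neither, holds CCACCC. The words thus occur in all 3 states, and their shares by state are given with the starts.
Sox1, chr8:12395269-12395568, plus strand: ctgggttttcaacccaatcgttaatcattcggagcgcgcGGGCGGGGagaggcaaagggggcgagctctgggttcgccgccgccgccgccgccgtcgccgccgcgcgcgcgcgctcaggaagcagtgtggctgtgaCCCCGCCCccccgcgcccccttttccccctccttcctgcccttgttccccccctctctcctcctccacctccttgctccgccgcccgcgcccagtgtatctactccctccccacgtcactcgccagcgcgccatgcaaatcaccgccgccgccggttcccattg
Sox14, chr9:99876121-99876420, minus strand: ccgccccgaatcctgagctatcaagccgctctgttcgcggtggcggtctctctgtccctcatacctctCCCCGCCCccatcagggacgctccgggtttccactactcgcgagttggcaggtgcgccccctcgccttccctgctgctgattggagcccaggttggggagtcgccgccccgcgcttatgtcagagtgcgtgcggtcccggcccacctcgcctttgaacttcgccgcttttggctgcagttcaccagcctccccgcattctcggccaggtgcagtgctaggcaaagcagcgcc
Foxf2, chr13:31625566-31625865, plus strand: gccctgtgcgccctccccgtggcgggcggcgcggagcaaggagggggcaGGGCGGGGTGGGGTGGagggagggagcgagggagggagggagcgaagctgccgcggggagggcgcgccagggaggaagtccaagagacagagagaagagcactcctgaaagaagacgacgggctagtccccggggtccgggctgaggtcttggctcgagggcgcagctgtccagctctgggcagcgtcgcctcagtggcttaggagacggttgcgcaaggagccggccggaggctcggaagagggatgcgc
Foxl2, chr9:98955357-98955656, plus strand: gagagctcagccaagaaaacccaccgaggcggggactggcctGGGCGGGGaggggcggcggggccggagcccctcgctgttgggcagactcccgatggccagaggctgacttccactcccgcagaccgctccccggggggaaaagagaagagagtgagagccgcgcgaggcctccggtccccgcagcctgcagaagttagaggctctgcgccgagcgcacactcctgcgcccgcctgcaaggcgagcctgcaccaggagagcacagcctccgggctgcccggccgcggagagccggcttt
Foxi3, chr6:70956356-70956655, plus strand: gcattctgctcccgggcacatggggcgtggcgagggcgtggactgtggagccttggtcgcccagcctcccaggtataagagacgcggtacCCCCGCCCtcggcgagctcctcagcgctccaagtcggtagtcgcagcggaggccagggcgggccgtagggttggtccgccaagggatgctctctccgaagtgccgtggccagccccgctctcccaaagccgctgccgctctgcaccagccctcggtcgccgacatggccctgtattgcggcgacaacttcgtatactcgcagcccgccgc
Foxd1, chr13:98353995-98354294, plus strand: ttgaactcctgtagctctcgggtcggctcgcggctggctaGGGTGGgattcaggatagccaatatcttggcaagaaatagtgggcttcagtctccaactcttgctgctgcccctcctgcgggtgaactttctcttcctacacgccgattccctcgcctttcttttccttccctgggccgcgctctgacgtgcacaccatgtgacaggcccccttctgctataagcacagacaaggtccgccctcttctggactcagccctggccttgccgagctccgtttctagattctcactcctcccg
Sox30, chr11:45980060-45980359, plus strand: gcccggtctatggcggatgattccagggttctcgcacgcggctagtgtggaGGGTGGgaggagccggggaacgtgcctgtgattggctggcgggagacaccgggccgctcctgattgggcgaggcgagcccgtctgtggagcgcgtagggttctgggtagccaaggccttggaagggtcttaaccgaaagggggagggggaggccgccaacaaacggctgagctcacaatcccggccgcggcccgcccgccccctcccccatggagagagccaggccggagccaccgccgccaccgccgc
Foxa3, chr7:19023490-19023789, minus strand: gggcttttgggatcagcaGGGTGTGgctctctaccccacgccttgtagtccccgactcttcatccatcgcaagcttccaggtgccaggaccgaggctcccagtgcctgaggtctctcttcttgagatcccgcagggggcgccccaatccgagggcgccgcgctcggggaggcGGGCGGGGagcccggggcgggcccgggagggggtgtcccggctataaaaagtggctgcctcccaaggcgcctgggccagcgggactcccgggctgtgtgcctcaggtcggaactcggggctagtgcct
Sox4, chr13:28953650-28953949, minus strand: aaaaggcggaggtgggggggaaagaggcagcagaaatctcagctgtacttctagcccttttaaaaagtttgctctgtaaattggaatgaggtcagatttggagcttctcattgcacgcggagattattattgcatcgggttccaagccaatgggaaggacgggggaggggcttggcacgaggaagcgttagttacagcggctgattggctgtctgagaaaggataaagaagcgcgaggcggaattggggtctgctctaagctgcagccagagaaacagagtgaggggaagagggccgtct
Foxd3, chr4:99656049-99656348, plus strand: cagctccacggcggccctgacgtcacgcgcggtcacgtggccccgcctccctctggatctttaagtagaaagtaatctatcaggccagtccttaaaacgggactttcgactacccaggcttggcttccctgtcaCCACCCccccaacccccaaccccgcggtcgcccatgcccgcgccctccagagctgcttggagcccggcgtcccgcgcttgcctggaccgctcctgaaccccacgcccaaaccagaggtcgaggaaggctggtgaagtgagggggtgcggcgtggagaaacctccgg

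**Figure D1:**
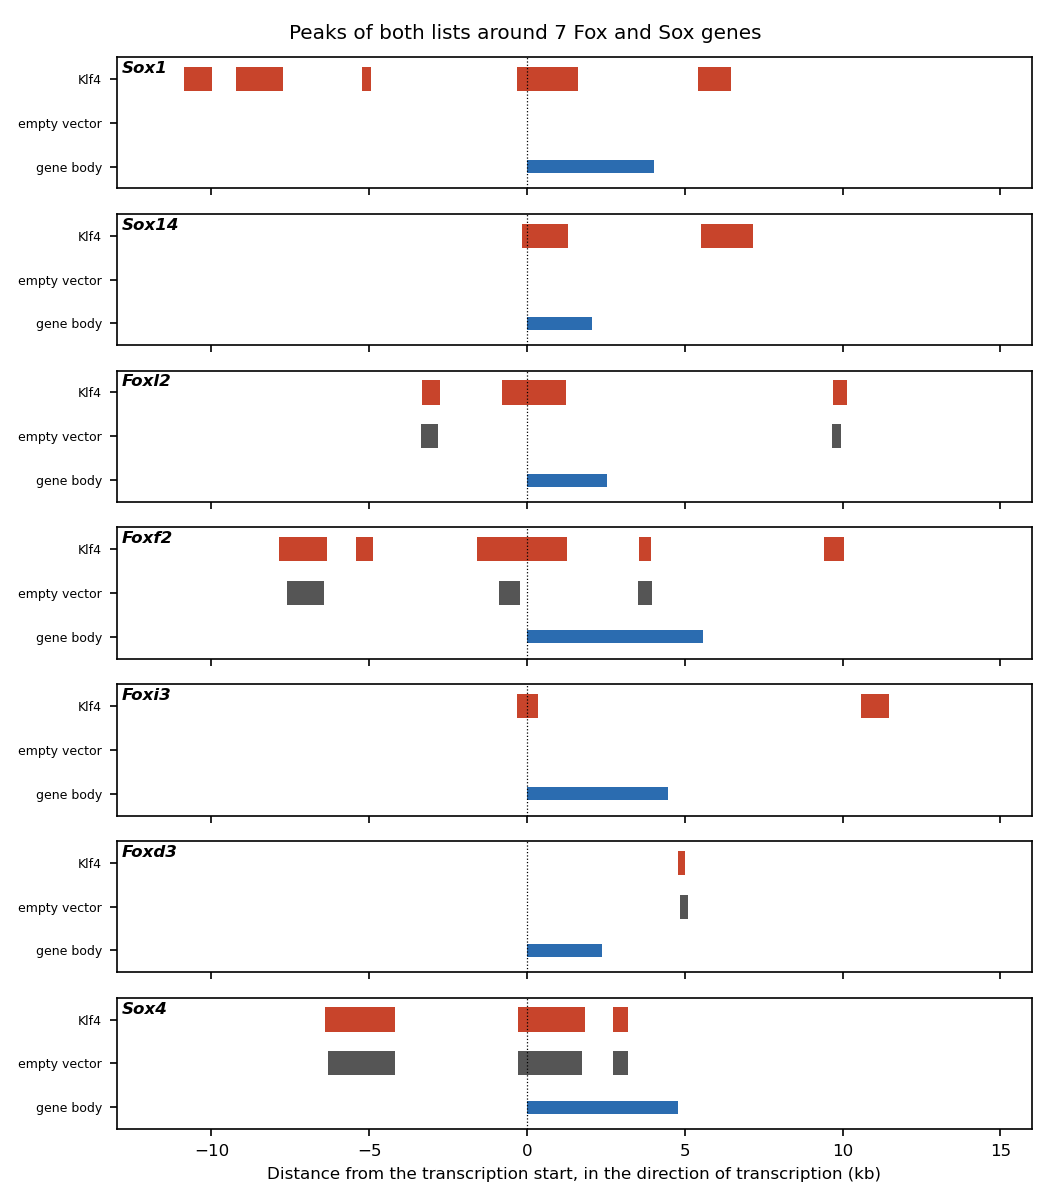
Peaks of the empty vector list (grey) and the Klf4 list (red) that reach the windows of 7 of the genes whose promoters are printed, with the gene body in blue, by distance from the transcription start in kb in the direction of transcription. Sox1, Sox14 and Foxi3 have no grey bar, the red bar at the starts of Foxl2 and Foxf2 spans the start while no grey bar does, and the bars of Sox4 match in both lists.

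The comparison asked whether misexpressed Klf4 altered accessibility around these genes. The Klf4 list covered more of the window than the empty vector list in 52 of the 60 genes, less in 6, and the same in 2. Over all protein-coding genes it covered more in 62.3% and less in 22.7%. An empty vector peak was present in 54 of the 60 windows, and a Klf4 peak in 59, where 17956 and 18455 of all 21887 genes had one. Sox3, a neural SoxB1 gene on the X chromosome, had none in either. The median log2 ratio of covered length, Klf4 over empty vector with 500 bp added to both lengths, was 0.68 over the 60 genes against 0.13 over all protein-coding genes. It was 0.66 for the Fox genes and 0.70 for the Sox genes. On that scale 20 of the 60 genes were at least 2-fold higher with Klf4, 14 Fox and 6 Sox, against a background of 8.51% of all genes. None was at least 2-fold lower, against a background of 0.242%. Leaving out genes with no peak in either list, the medians were 0.70 and 0.23.

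These counts depended on the weak peaks of the lists and on the larger size of the Klf4 list. With only peaks of −log10 q of at least 20, 5 of the 60 genes were at least 2-fold higher (background 3.41%) and 2 at least 2-fold lower (background 2.36%), and the median ratio was 0. With the 20000 strongest peaks of each list the counts were 2 higher (background 3.02%) and 2 lower (background 2.17%), which are near the background. With the Klf4 list cut to the peak number of the empty vector list, 10 genes were 2-fold higher (background 5.57%), and with Klf4 lengths divided by the ratio of the lists' total covered lengths, 1.28, there were 13 (background 4.47%) at a median of 0.37 against 0 over all genes. Of the original 20 genes, 10 kept the 2-fold difference in the cut list and 13 after the division, while 12 kept it at −log10 q of at least 5, 2 at −log10 q of at least 20 and none among the 20000 strongest peaks.

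**Figure D2:**
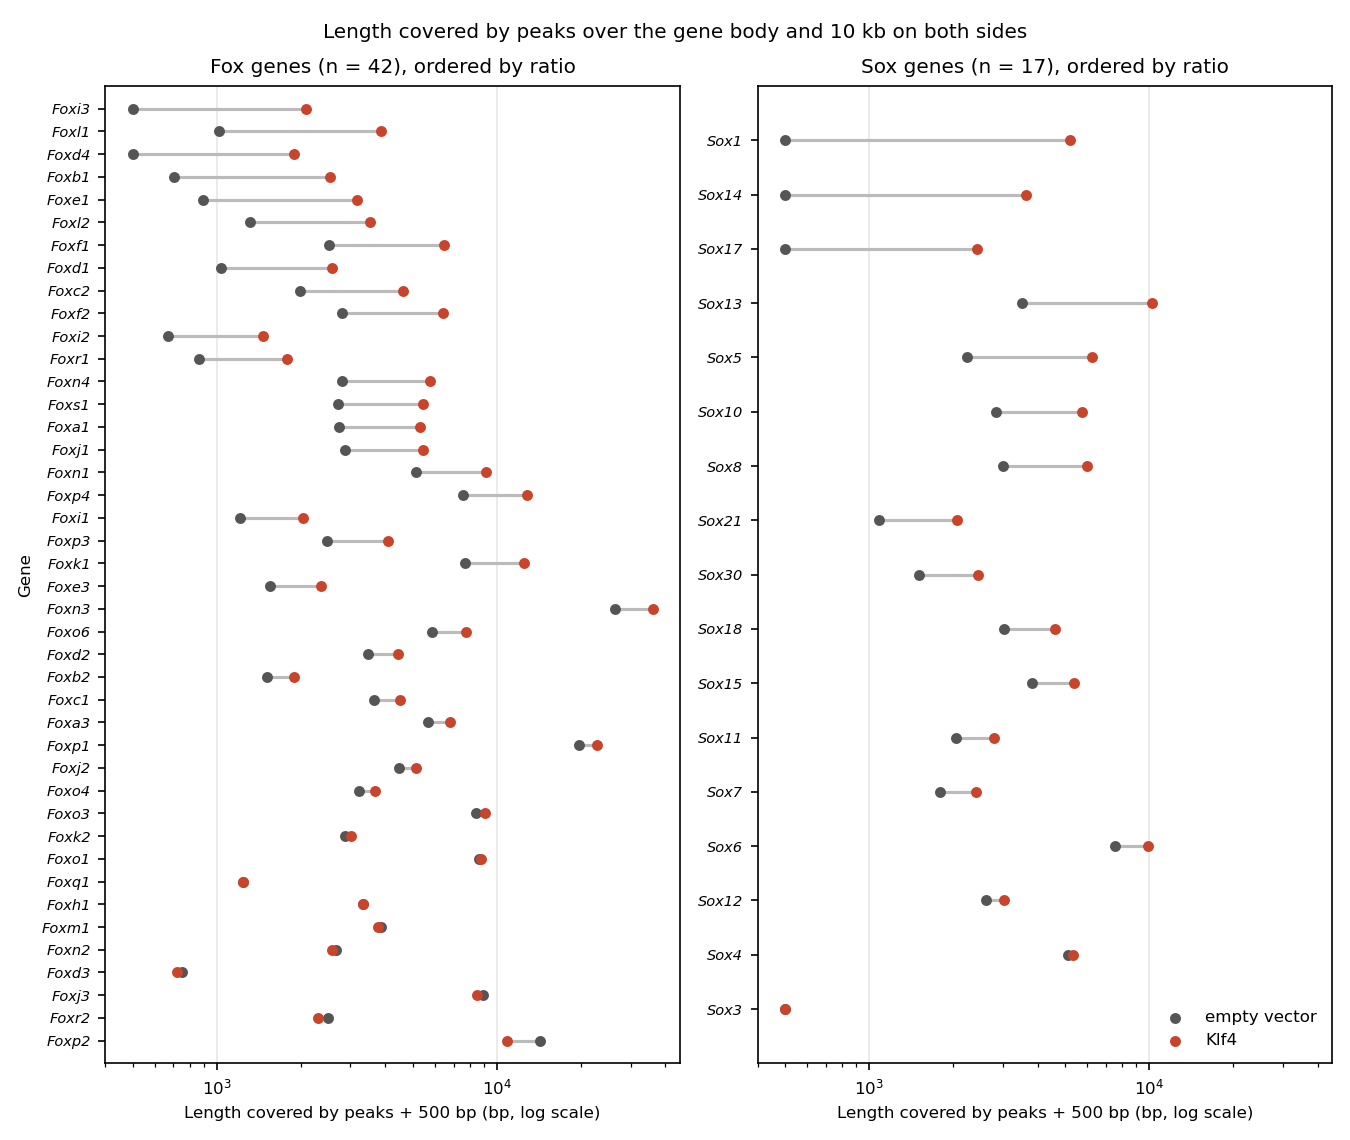
Length covered by peaks in each gene's window, plus 500 bp, in the empty vector list (grey) and the Klf4 list (red), on a log axis in bp, for 59 of the 60 Fox and Sox genes ordered by their ratio. Each point is 1 merged list, the red point lies to the right in most genes, and 5 genes with peaks in the Klf4 list start at 500 bp, which stands for no empty vector peak.

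Most of the 20 genes had little accessible chromatin under the empty vector. Of 6 genes with no empty vector peak, 5 were at least 2-fold higher (background 10.2% of such genes). Most of that background, 3258 of 3931 genes, had no Klf4 peak either and so could not differ. Among the 673 with a Klf4 peak, 399 were 2-fold higher, as were all 5 of the 6 that had one. Of 31 genes with some but under 2500 bp covered, 14 were at least 2-fold higher (background 12.9%), and of 23 genes with 2500 bp or more, 1 was, namely Sox13 (background 4.11%). Most were also short. Of 38 Fox and Sox genes with a body under 10 kb, 17 were at least 2-fold higher, against 654 of 7925 such genes in the genome, and of 22 longer ones 3 were, against 1208 of 13962.

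Sox1 stood first of the 60 genes in the ratio over all peaks, at 3.38. With −log10 q of at least 5 it was 1.62, below Sox17 at 2.28, and with at least 20 it was 0. Sox1 (chr8) marks neural progenitors, and its window went from 0 bp covered under the empty vector to 4704 bp under 5 Klf4 peaks. The widest of these, 1937 bp at −log10 q of 2.67, spans the start shown above. The strongest, at −log10 q of 14.4, reaches only 6 bp into the window and overlaps an empty vector peak that lies outside it. The remaining 4 had no empty vector partner. Sox14, a SoxB2 gene of interneurons and other neurons, went from 0 to 3124 bp under 2 peaks, the stronger at −log10 q of 3.39. With −log10 q of at least 5, and in the cut Klf4 list, no Sox14 peak was left in either list. Sox21, the other SoxB2 gene, had 583 bp and 1563 bp. So the SoxB genes other than Sox3 were covered longer with Klf4. The strongest Sox14 peak stood 101209th of the 128538 peaks in its list, and the Sox21 start peak, at −log10 q of 11.9, stood 44811th.

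Sox17, a regulator of definitive endoderm and endothelium, had no empty vector peak. In the Klf4 list a single peak of 1928 bp at −log10 q of 7.67 lay inside its body. Its SoxF relatives in the endothelium had peaks in both lists: Sox18 had 2539 bp and 4132 bp with 6 peaks in each, and Sox7 had 1291 bp under 1 peak and 1906 bp under 4. A Sox7 peak of the Klf4 list at chr14:63957862-63958163 had −log10 q of 21.02 and no empty vector partner. Sox17 was thus the member of this subgroup that had peaks in 1 list only.

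The SoxD genes are long, and their proteins lack a transactivation domain and act with partners, for instance in cartilage. Sox13 had 3023 bp in 5 empty vector peaks and 9757 bp in 15 Klf4 peaks, a log2 ratio of 1.54. Of the 15 peaks, 11 had no empty vector partner, where 36.7% of the whole Klf4 list had none. The strongest of the 11 lay at chr1:133434147-133434852 with −log10 q of 20.2. Sox5 went from 3 peaks and 1741 bp to 11 peaks and 5780 bp, a ratio of 1.49. All its peaks lay in or reached into the gene body, and the strongest, at chr6:143987627-143987997 with −log10 q of 38.3, had no empty vector partner. Sox6, which is known to restrain insulin gene expression, had 13 peaks in both lists, over 7065 bp and 9407 bp, a ratio of 0.39. With peaks of −log10 q of at least 20 it was −1.26, where 3 empty vector peaks and 1 Klf4 peak were left. Sox5 was also the 2-fold gene whose ratio held up best across alternatives, with a lowest value of 0.80 over 10 of them.

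In the SoxE group of neural crest genes, Sox10 went from 2332 bp to 5246 bp, a ratio of 1.02, and Sox8 from 2518 bp to 5493 bp, a ratio of 0.99. The 2 genes lie on either side of the 2-fold limit without differing much from each other. For Sox10 the sign depended on weak peaks, and the ratio was −0.16 with peaks of −log10 q of at least 20 and −0.15 among the 20000 strongest. Its 2 strongest peaks, at −log10 q of 38.1 and 25.8 in the empty vector list, were present in both lists.

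The SoxC genes, which are expressed in developing islets, had ratios under 0.5. Sox4, needed for islet formation, had 3 peaks in both lists over 4636 bp and 4840 bp, a ratio of 0.06. Sox11 had 1 peak in each, of 1548 bp and 2287 bp, a ratio of 0.44. Sox12 had 2108 bp and 2531 bp, a ratio of 0.22. None of the 3 reached 2-fold, and the Sox11 ratio of −2.03 among the 20000 strongest peaks of each list comes from its wider Klf4 peak, which stood 23869th, being left out. With −log10 q of at least 20 it stayed at 0.44. Of the single-gene groups, Sox15, a gene of muscle progenitors, had 3319 bp and 4889 bp and the testis gene Sox30 had 1006 bp and 1943 bp. A Klf4 peak in Sox30 at chr11:45991618-45992075, with −log10 q of 28.1, had no empty vector partner.

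Of the FoxA genes, which open chromatin in endoderm, Foxa1 had 1 empty vector peak of 2231 bp over its start. In the Klf4 list it had 5 peaks over 4813 bp, a ratio of 0.96, and the start peak was 2094 bp wide. The 4 further peaks had no partner, and the strongest, of 1766 bp at −log10 q of 19.3, lay 4229 bp from the gene body. Foxa3 had 6 and 7 peaks over 5177 bp and 6326 bp, a ratio of 0.27. Both FoxA starts were under peaks in both lists.

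The FoxF, FoxL and FoxC genes include regulators of mesoderm and mesenchyme. FoxF and FoxL were the Fox subgroups of more than 1 gene in which every gene was past 2-fold. Foxf1, a regulator of gut and lung mesenchyme, went from 2024 bp to 5999 bp, a ratio of 1.36, with 3 of its 4 Klf4 peaks overlapping empty vector peaks. One of these was 1199 bp wide under the empty vector and 2554 bp wide with Klf4. Foxf1 turned around at high peak strength: with peaks of −log10 q of at least 20 its ratio was −1.76, because its strongest peak had −log10 q of 24.7 under the empty vector, which passes, and 12.9 with Klf4, which does not. Foxf2 went from 2291 bp to 5941 bp, a ratio of 1.21. Its start lay outside an empty vector peak of 682 bp and inside the overlapping Klf4 peak of 2848 bp.

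Foxl1, a marker of mesenchymal cells under the gut epithelium, went from 516 bp to 3371 bp, a ratio of 1.93. Foxl2, the ovarian and pituitary factor, went from 812 bp to 3009 bp, a ratio of 1.42. A Klf4 peak of 2006 bp with no empty vector partner spans the Foxl2 start, at −log10 q of 4.55, and the Foxl2 ratio was 0 with −log10 q of at least 5. Foxc2, a gene of lymphatic vessels, went from 1485 bp to 4122 bp, a ratio of 1.22, and Foxc1 had 3141 bp and 4005 bp, a ratio of 0.31. The windows of Foxc2 and Foxl1 overlap by 11211 bp on chromosome 8, so 3 Klf4 peaks and 1 empty vector peak counted for both. Foxd2 and Foxe3 share 1 peak in each list in the same way.

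The other Fox genes past 2-fold had between 0 and 2301 bp covered under the empty vector. Foxi3, a gene of ectodermal organs, went from 0 to 1579 bp, and its start peak at chr6:70956273-70956950 had −log10 q of 22.9. Foxd4 went from 0 to 1379 bp, most of it in a peak at chr19:24899887-24900811 with −log10 q of 20.3. These were the 2 Fox genes with no empty vector peak. Foxb1, a gene of the developing midbrain and hypothalamus, went from 203 bp to 2041 bp, a ratio of 1.85. Foxe1, the thyroid factor, went from 393 bp to 2656 bp, a ratio of 1.82.

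Foxd1, a gene of kidney stroma, had 532 bp and 2070 bp, a ratio of 1.32, and Foxi2 had 170 bp and 966 bp, a ratio of 1.13. The Foxi2 ratio was −0.0022 with peaks of −log10 q of at least 5 and also in the cut Klf4 list, where only its 1 shared peak was left. Foxr1 had 360 bp and 1274 bp, the retinal gene Foxn4 2301 bp and 5270 bp, and Foxs1 2201 bp and 4931 bp, with ratios of 1.04, 1.04 and 1.01. By contrast, Foxd3, the neural crest and pluripotency factor, had 1 weak peak in each list, of 249 bp and 222 bp, and Foxq1 had 737 bp and 741 bp.

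The FoxO genes, which carry the insulin response, had at least 2708 bp covered under the empty vector and had ratios under 0.4 over all peaks. Foxo1 had 13 empty vector peaks over 8162 bp and 9 Klf4 peaks over 8275 bp, a ratio of 0.02. Of the 13, 5 had no Klf4 partner, where 18.8% of the whole empty vector list had none. The strongest Foxo1 peak was 2602 bp under the empty vector, where it stood 14175th, and 2920 bp with Klf4, where it stood 20051st. The ratio of −2.63 among the 20000 strongest peaks of each list comes from this Klf4 peak falling just outside them, and with −log10 q of at least 20 the ratio was 0.14. In the cut Klf4 list it was −0.50. Foxo3 had 11 peaks in both lists, over 7888 bp and 8542 bp, a ratio of 0.11. A peak found only with Klf4 lay at chr10:42187935-42188431 with −log10 q of 28.5. Foxo4 had 2708 bp and 3165 bp, a ratio of 0.19, and Foxo6 had 5389 bp and 7236 bp, a ratio of 0.39. A Foxo6 peak at chr4:120277097-120277985, inside the gene body, was among the 5 strongest peaks of these families in both lists.

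Foxm1, which drives the cell cycle and is known for its role in beta cell proliferation, had 4 peaks in both lists over 3360 bp and 3272 bp, a ratio of −0.03. Of the FoxK genes, Foxk1 went from 7171 bp to 11991 bp, a ratio of 0.70, and Foxk2 had 2357 bp and 2512 bp, a ratio of 0.08. A Foxk1 peak of 2085 bp at chr5:142452016-142454100 had no empty vector partner at −log10 q of 27.2. Foxj1, the factor of motile cilia, had 2358 bp and 4932 bp, a ratio of 0.93.

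The FoxP genes are long and held many peaks. Foxp1 had 21 peaks over 19113 bp and 33 peaks over 22220 bp, a ratio of 0.21. Of the 33 Klf4 peaks, 13 had no partner, a share near the 36.7% of the whole Klf4 list. The peak at chr6:99378895-99379419, with −log10 q of 38.4, was the strongest peak of both families found in the Klf4 list only. Foxp4 went from 7074 bp to 12259 bp, a ratio of 0.75. Foxp2 ran the other way, with 13748 bp and 10380 bp, a ratio of −0.39, the lowest of the 60 genes, and 18 and 17 peaks. Its peaks present in both lists changed by −3102 bp in total, although the widest of them, 3035 bp under the empty vector, was 3092 bp with Klf4, and 4 of its empty vector peaks had no Klf4 partner.

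Foxn3, a long gene for a checkpoint repressor, had the largest covered length in both lists, 25922 bp and 35733 bp, and the largest difference in bp, at a ratio of 0.46. The genes with less coverage in the Klf4 list besides Foxp2 differed by 430 bp or less. Foxj3 had 8394 bp and 7964 bp, Foxr2 had 1984 bp and 1793 bp, and Foxn2 had 2156 bp and 2067 bp. Foxh1, which carries Nodal signals with Smad proteins, had 2817 bp in both lists.

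Over all 60 genes the covered length summed to 196772 bp with the empty vector and to 303355 bp with Klf4, a ratio of 1.54 where the whole lists differed by 1.28. For the Sox genes the ratio was 2.06 and for the Fox genes 1.43. Of the difference of 106583 bp, Klf4 peaks with no empty vector partner held 91424 bp, and peaks with a partner were 27525 bp longer in total. Empty vector peaks with no Klf4 partner, 12366 bp in all, count against these. At 17 of the 20 genes past 2-fold, and at 45 of all 60, peaks found only with Klf4 held more bp than the widening of partnered peaks. Foxf1, Foxf2 and Foxb1 were the exceptions among the 20. For the 5 of the 20 with no empty vector peak in the window, almost no other outcome was possible. The share over all protein-coding genes was not computed.

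**Figure D3:**
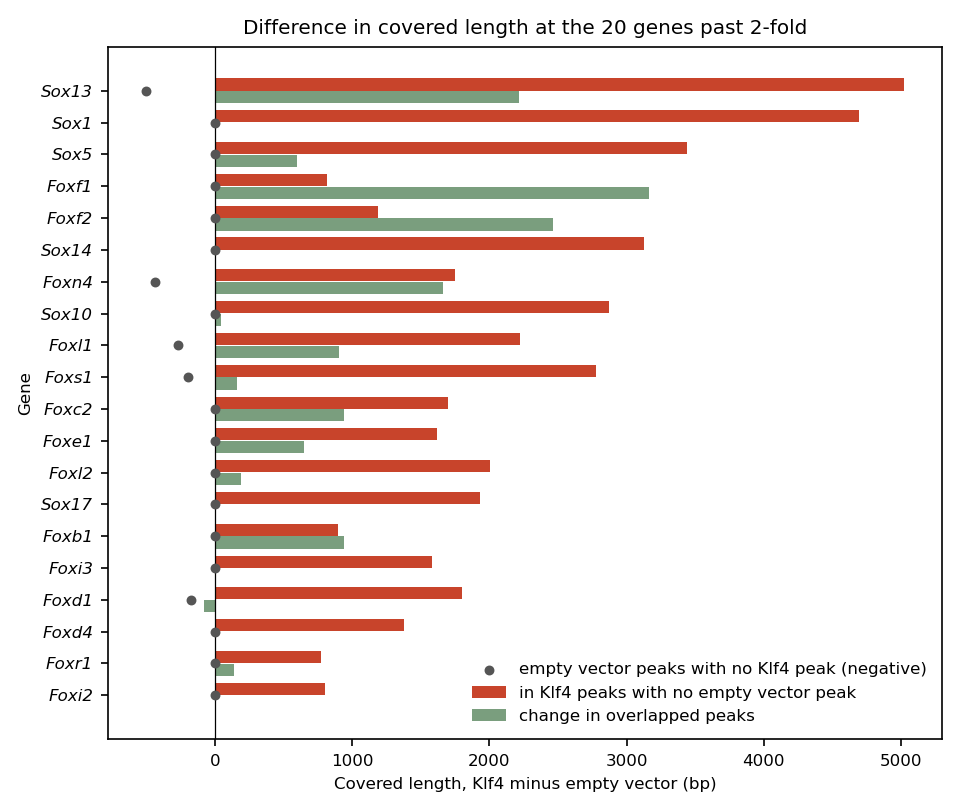
Covered length in Klf4 minus empty vector, in bp, for the 20 genes past 2-fold, split into Klf4 peaks with no empty vector peak (red bars), the change in peaks that overlap between lists (green bars) and empty vector peaks with no Klf4 peak (grey points, drawn as negative). Red exceeds green in 17 genes, 5 of which had no empty vector peak in the window, and green exceeds red in Foxf1, Foxf2 and Foxb1.

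The windows held 269 distinct empty vector peaks and 387 distinct Klf4 peaks. Of the Klf4 peaks, 157 (40.6%, 95% Wilson interval 35.8 to 45.5%) were overlapped by no empty vector peak, against a background of 36.7% of the whole list, which lies inside that interval. For the Fox genes the share was 112 of 298 (37.6%) and for the Sox genes 45 of 89 (50.6%, interval 40.4 to 60.7%). No Klf4 peak overlapped 38 of those found with the empty vector (14.1%, interval 10.5 to 18.8%), where the background is 18.8%. The intervals reflect counting error alone and treat neighbouring peaks as independent, which they are not. The share of peaks found only with Klf4 was thus near that of the whole list for the Fox genes. The median width of such peaks at both families was 458 bp, against 355 bp in the whole list, at a median −log10 q of 4.76 and 4.75. Peaks with a partner were also wider in these windows than in the whole lists, with a median of 764 bp against 631 bp for Klf4 and 647 bp against 620 bp for the empty vector. Empty vector peaks without a partner were not, at 268.5 bp against 280 bp.

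Peaks matched 1 to 1 between the lists numbered 228 in these windows. Of these, 53.9% were wider in the Klf4 list, against 46.9% over the whole lists. At least 2-fold wider were 13.2%, against 7.32%, and at least 2-fold narrower 7.89%, against 5.08%. The strongest peaks of both families were the same regions in both lists. They lay in the windows of Foxh1 (chr15:76659652-76661453 in the empty vector list, −log10 q 229), Foxj2 (chr6:122810617-122811948, 203), Sox15 (chr11:69662241-69663099, 200.4), Foxr2 (chrX:153139677-153140574, 166) and Foxo6. The Foxh1 peak lies near ends of the neighbouring genes Cyhr1 and Kifc2, and the Sox15 peak near an end of Mpdu1.

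Beyond those named above, no Klf4 peak without a partner reached −log10 q of 20 in these windows, and in all 9 did. None of the empty vector peaks without a partner did. The strongest of these lay at chr11:78374248-78374422 in the window of Foxn1, the thymus epithelium gene, with −log10 q of 13.8, at chr2:152392716-152393098 near Sox12 with 12.7, and at chr6:15176835-15177040 in Foxp2 with 11.4. The next were a peak of Foxj3 at 5.05 and another of Foxp2 at 4.47. Peaks of −log10 q of at least 20 in these windows numbered 84 with Klf4 and 79 with the empty vector. How many peaks this strong lacked a partner in the whole lists was not counted, so the 9 has no background here.

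Transcription starts were listed for 39 of the 60 genes. A peak lay within 1 kb of a start in 24 of them with the empty vector (61.5%, against 64.3% of all genes with a listed start) and in 32 with Klf4 (82.1%, against 70.8%). The 8 that had one with Klf4 only were Foxd1, Foxd4, Foxi3, Foxl2, Foxr1, Sox1, Sox14 and Sox30, against a background of 7.20% of genes. None had one with the empty vector only, against a background of 0.640%. Of 47 starts of these genes, 18 lay under a peak in both lists, 10 under a Klf4 peak only (21.3%, Wilson interval 11.99 to 34.9%, background 6.85%) and 19 in neither. Intervals on starts reflect counting error alone and treat starts as independent, though Sox6, Foxp1 and Foxp3 have several each. No start lay under an empty vector peak only, where the background is 0.842%. The 10 were those of Sox1, Sox14, Sox15, Sox30, Foxd1, Foxe3, Foxf2, Foxi3, Foxl2 and Foxn4. Foxe3, Foxf2, Foxn4 and Sox15 had an empty vector peak within 1 kb that did not reach the start.

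CpG-rich promoters are open in most cell types, and the Fox and Sox promoters were rich in GC (median 62.7% against 56.3% over all coding starts). With a ratio of observed to expected CpG of 0.6 or more, 29 starts of these genes remained. Of them 16 were under a peak in both lists, 8 under a Klf4 peak only (27.6%, interval 14.7 to 45.7%) and 5 under neither. Over all 10137 such starts, 90.3% were under a peak in both lists, and the background for a Klf4 peak only was 4.32%. CpG-rich starts outside an empty vector peak were thus a larger share of the Fox and Sox starts than of all starts.

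**Figure D4:**
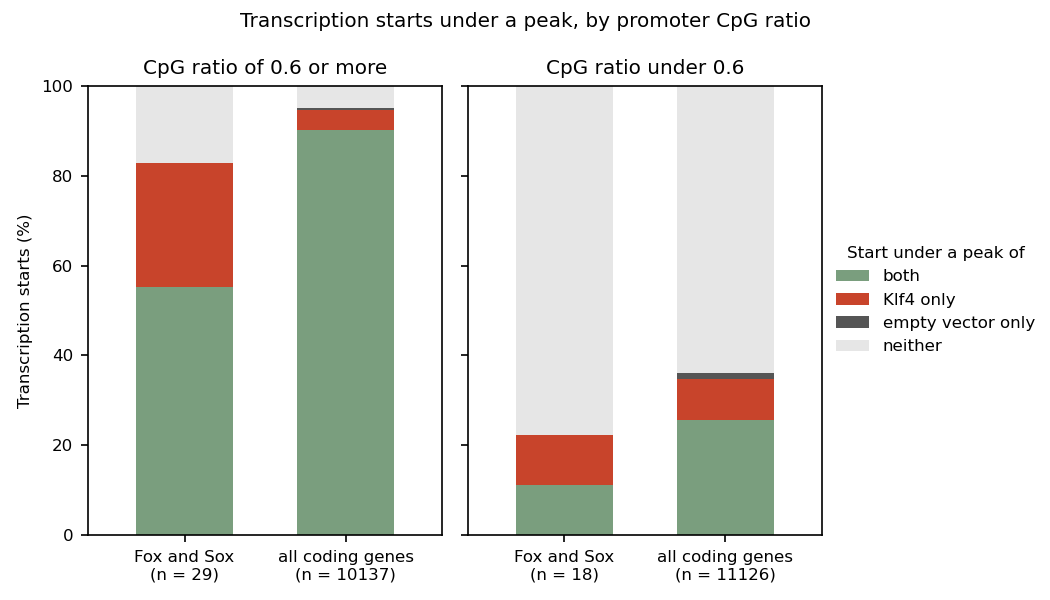
Share of transcription starts, in percent, that lay under a peak of both lists, of the Klf4 list only, of the empty vector list only or of neither, for Fox and Sox genes and for all coding genes, split at a promoter CpG ratio of 0.6. At 0.6 or more the red share is 27.6% for Fox and Sox starts and 4.32% for all.

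The word CCCCGCCC, searched on both strands of the 300-base promoters, occurred in 16 of the 47 promoters (34.0%) and in 23.6% of all coding promoters. CCACCC occurred in 36.2% and 33.6%, and CACACCC, another word of KLF factors, in 10.6% and 8.02%. Any of these 3 occurred in 66.0% and 50.7%. Among the CpG-rich promoters, all 8 Fox and Sox promoters under a Klf4 peak only held one of these words, against 78.5% of all such promoters. Of those under a peak in both lists 13 of 16 did, against 62.3%, and of those under neither 1 of 5, namely Foxd3, against 44.3%. CCCCGCCC alone was in 5 of 8, 8 of 16 and 0 of 5, against 46.3%, 40.0% and 21.7% over all coding promoters of these states. In the state with no Fox or Sox start, under an empty vector peak only, it was in 22 of 47 CpG-rich coding promoters (46.8%), and any of the words in 61.7%. For these 3 states the order was that of all genes, and a match is a run of letters, not a measured binding site.

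Words that forkhead proteins and Sox proteins are known to bind were in few of the 47 promoters, 2 or 3 each. TGTTTAC was in 4.26% of the 47 promoters against 3.01% of all, and TGTTTGC in 6.38% against 4.58%. ACAATGG was in 4.26% against 2.92%, and the shorter AACAAT in 4.26% against 9.05%. The 21 genes with no listed start were looked at by either end of the gene. A peak lay within 1 kb of an end in 16 of them with the empty vector (76.2%, against 65.5% of the 4395 coding genes with no listed start) and in 20 with Klf4 (95.2%, against 74.0%). With Klf4 only, 4 had one, Sox17, Sox7 and Foxc2 among them, where the background is 9.56%.

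Genes upstream of the FoxO proteins were also looked at. Of 22 genes of insulin signalling and FoxO control, 13 were covered more and 9 less in the Klf4 list. Over all genes the shares were 62.3% and 22.7%. None of the 22 was 2-fold higher or lower, against backgrounds of 8.51% and 0.242%. For a set of 22 genes that count is near the background. The median log2 ratio was 0.08, against 0.13 over all genes. The insulin receptor gene Insr had 4592 bp and 5236 bp, and Irs2, the main insulin receptor substrate of beta cells, 5975 bp and 6368 bp. Akt1, whose kinase phosphorylates FoxO, had the ratio 0.63, and Ywhab, whose 14-3-3 protein holds FoxO in the cytoplasm, −0.35. The 4 FoxO genes themselves had a median of 0.15.

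Of 17 other HMG box genes and Wnt partners of Sox proteins, 3 were at least 2-fold higher and the median was 0.27, where 8.51% of all genes were and their median was 0.13. These 3 were Lef1 (820 bp and 7585 bp, ratio 2.61), Tcf7l2 (1146 bp and 9458 bp, ratio 2.60) and Ctnnb1, the gene of beta-catenin (1226 bp and 4626 bp, ratio 1.57). The Groucho corepressor genes were mixed: Tle2 had the ratio 0.98 and Tle1 −0.24. Among other factor families, 33 of 39 Hox genes were at least 2-fold higher with a median of 1.91, which is above that of the Fox and Sox genes. Of 16 Klf genes other than Klf4 1 was, and of 25 nuclear receptor genes 1 was. For sets this small these counts are near the background of 8.51%. Their medians of 0.25 and 0.29 lie above the 0.13 of all genes. No test separates these medians.

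**Figure D5:**
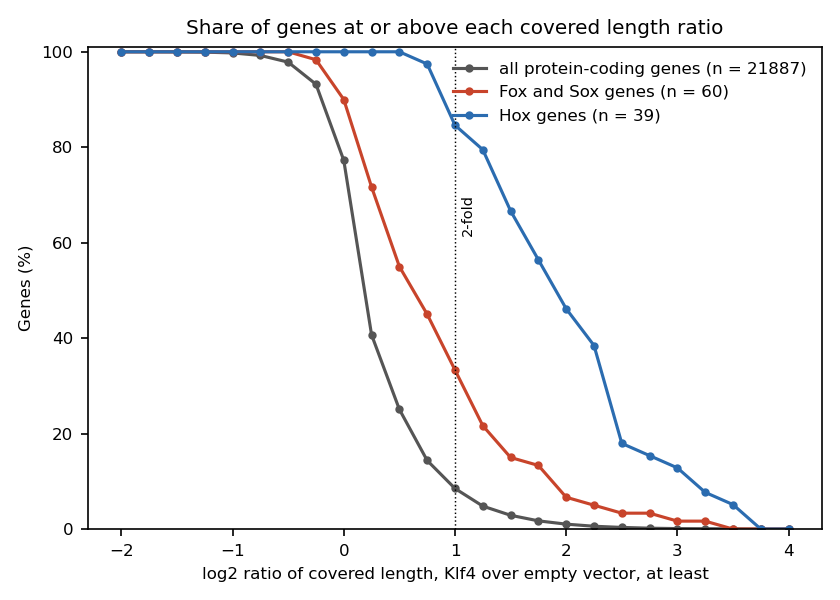
Percent of genes whose log2 ratio of covered length, Klf4 over empty vector, is at or above each value on the x axis, for all protein-coding genes, the 60 Fox and Sox genes and the 39 Hox genes. At the dotted 2-fold line the curves stand at 8.51%, 33.3% and 84.6%.

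Over the main chromosomes the empty vector list held 100099 peaks over 66.0 Mb and the Klf4 list 128538 peaks over 84.2 Mb. As a check of the labels, the strongest peak of the Klf4 list lay at the Klf4 gene, where the strongest empty vector peak stood 19941st in its own list. The plasmid also carries Klf4 sequence, and its reads and those of the gene cannot be told apart here. All 10 beta cell marker genes, Ins1, Ins2 and Pdx1 among them, had peaks in both lists, with 40359 bp and 41008 bp covered. Ucn3 fell from 1846 bp to 781 bp, Pdx1, Nkx6-1 and Glp1r were slightly less covered with Klf4, and the others more. Of 15 marker genes of other pancreatic, stromal, endothelial and blood cells, 12 had peaks with the empty vector and 14 with Klf4, over 22464 bp and 32884 bp. Gcg, Cela2a, Dcn, Ptprc and Lyz2 were covered less with Klf4, and the others apart from Cpa1 more. Cpa1 was at 0 in both lists and Irx1 and Cd3e with the empty vector only. The part of these differences in the Fox and Sox values was not tested.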

How the data were processed

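ATAC-seq was run on 8 libraries of MIN6 cells, 4 per plasmid, and groups were taken from the labels. Bowtie2, FastQC, MACS2, DiffBind and the build mm10 are named without versions, per the submitters' processing notes, and mm10 is GRCm38. The differential analysis is not used here. Read filters, the transposase shift, duplicate handling and caller options are not given in the sources used here, nor is whether libraries were pooled before or after calling. The authors deposited 1 broad peak list per plasmid. MACS2 was the peak caller, per the labels. The lists as deposited by the authors give each peak a fold enrichment (the ratio of its signal to local background), a −log10 p and a −log10 q. The deposited score column repeats −log10 q and was not used. Broad calling joins neighbouring stretches, so a wider peak can be several joined ones. How many weak peaks pass moves with depth and background, so these values were used to rank and filter within a list. A common −log10 q minimum was applied to both lists in some alternatives, and it need not mean the same strength in each. The largest deposited q-values were 0.0963 and 0.0997.

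Peaks outside chromosomes 1 to 19, X and Y were left out, which left 100099 of 100264 and 128538 of 128726. Covered length in each window of 10 kb on both sides was summed, and log2 ratios were taken after adding 500 bp to both lengths, which understates the differences of genes with short coverage. A partner is a peak of the other list that overlaps by at least 1 bp. No test was possible between 2 merged lists. Gene positions and promoters came from RefSeq tables of GRCm38.p6. The steps were tested on simulated data. Genes were named where they were 2-fold different, among the 6 largest differences in bp in each direction, on a list of pancreatic and well-known members, or without any peak; peaks were named when among the 5 strongest of a list, or found in 1 list with −log10 q of at least 20, or, if fewer than 5, the 5 strongest. Members and lists were chosen with earlier results of these data known. Alternatives were other windows, peak filters, added lengths, overlaps, start distances and folds, and 2 scalings and the split by empty vector coverage were chosen after seeing the data. The 3 genes left out by the rule, and the values of a further gene, are not reported here. Python 3.11.15, numpy 2.4.6, pandas 2.3.3 and matplotlib 3.10.9 were used.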

Additional observations from a re-analysis of the deposited data

How the results depend on the processing

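With windows of 2 kb, 100 bp added, a −log10 q minimum of 5, a peak width minimum of 500 bp, or peaks near other genes left out, 18 to 25 genes were at least 2-fold higher and none lower, against backgrounds of 8.38 to 12.3% higher and 0.26 to 1.32% lower. Of the original 20 genes, 12 kept the 2-fold difference with a −log10 q minimum of 5, 15 with windows of 2 kb, 10 with windows of 50 kb, and 19 or 20 in the other 3 of these settings. The count was 12 (background 6.78%) with windows of 50 kb and 33 (background 21.1%) at 1.5-fold. It was 5 with −log10 q of at least 20 and 2 among the 20000 strongest peaks of each list, with 2 genes at least 2-fold lower (backgrounds 2.36 and 2.17%) and a median ratio of 0 in both settings. It was 10 in the Klf4 list cut to the empty vector peak number and 13 after division by the ratio of total lengths, where the median was 0.37; both were chosen after seeing the data. The share of Klf4 peaks without a partner was 49.9% at 50% overlap, 29.8% at −log10 q of at least 5, 10.7% at 20 and 30.3% for peaks of at least 500 bp. For empty vector peaks it was 22.3%, 2.23%, 0% (0 of 79) and 3.27%. The shares of the whole lists at these settings were not computed, so these values do not set the Fox and Sox windows apart from other peaks. Foxf1 was at −1.76 with −log10 q of at least 20, Foxi2 at −0.0022 with −log10 q of at least 5 and in the cut list, and Sox10 at −0.16 and −0.15 with −log10 q of at least 20 and the 20000 strongest peaks. Among genes under 2-fold, Foxo1 went to −2.63 and Sox11 to −2.03 among the 20000 strongest peaks, and Sox6 to −1.26 with −log10 q of at least 20. For Foxf1, Foxi2, Foxo1, Sox11 and Sox6 the filters removed Klf4 peaks, and for Sox10 the peaks that were left were narrower with Klf4. Of 600 values of single genes under 10 alternatives, 462 stayed within 0.5 of the reported log2 ratio and 57 had the opposite sign. With −log10 q of at least 20 and the 20000 strongest peaks, 23 and 18 of 60 stayed within 0.5.

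No paired analysis was possible because each plasmid has 1 merged list with no value per library. Leaving out each library in turn was not run for the same reason. Read depth is unknown.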
